A study of Mus musculus with 6 samples.

Results

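Penk encodes proenkephalin, the precursor of the enkephalins, which are short opioid peptides. It was selected for description because its level differed between the groups, as 1 of 24589 genes in the table, by matching its gene symbol. Bulk RNA-seq was made of primary CD8+ T cells of the mouse, lymphocytes that kill infected and tumour cells. All 6 libraries came from WT cells activated with antibodies to CD3 and CD28, so the comparison lies within activated cells. The DMSO group (n = 3) received only the solvent, and the TVA group (n = 3) received 20 µM trans-vaccenic acid, a trans fatty acid of ruminant fat, each for 24 h. Per the study's methods the cells were isolated with magnetic beads from spleen and lymph nodes of C57BL/6 mice. The labels do not say whether replicates were separate cultures or animals, so p-values measure only the spread between these libraries, which may be technical.

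Proenkephalin holds several enkephalin copies, most of them framed by pairs of basic residues at which prohormone convertases cut. Carboxypeptidases then trim the fragments, and the released Met-enkephalin and Leu-enkephalin act mainly on the delta and mu opioid receptors until neprilysin and aminopeptidase N degrade them. The gene is best known from neurons and adrenal chromaffin cells, but lymphocytes also transcribe it after activation. Its promoter is a textbook target of CREB, the cAMP-responsive transcription factor, and of AP-1 dimers of the Fos and Jun families.

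The gene lies on the minus strand of chromosome 4 in the mouse build GRCm38, at chr4:4133531-4138819 in the GENCODE annotation. The main transcript, Penk-201, has 1449 bases in 2 exons and 804 coding bases. The coding sequence held 7 enkephalin copies, of which 6 spelled Met-enkephalin and 1 Leu-enkephalin, and all 7 lay in exon 2. These copies are shown because they are the product that a Penk transcript encodes. Each line gives 27 bases, 5′ to 3′ on the coding strand, with the 15 bases for the pentapeptide in capitals and the neighbouring codons in lower case.
Copy 1, Met-enkephalin, chr4:4134328-4134354: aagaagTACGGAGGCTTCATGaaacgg
Copy 2, Met-enkephalin, chr4:4134307-4134333: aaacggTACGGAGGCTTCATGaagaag
Copy 3, Met-enkephalin, chr4:4134220-4134246: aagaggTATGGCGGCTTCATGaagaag
Copy 4, Met-enkephalin, chr4:4134067-4134093: aagaggTATGGGGGCTTCATGagaagc
Copy 5, Met-enkephalin, chr4:4133995-4134021: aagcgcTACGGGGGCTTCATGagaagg
Copy 6, Leu-enkephalin, chr4:4133935-4133961: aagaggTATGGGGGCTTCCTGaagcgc
Copy 7, Met-enkephalin, chr4:4133842-4133868: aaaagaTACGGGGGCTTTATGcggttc
The 7 pentapeptide stretches were written in 6 different ways, since copies 1 and 2 have the same 15 bases. A pair of codons for basic residues stood before each of the 7 copies, and 5 copies had such a pair on both sides. Copies 4 and 7 lacked it on the far side. The deposited value is 1 number per gene and does not separate the transcripts. A second gene, A830012C17Rik, is annotated on the opposite strand from 4138321 to 4188703 and overlaps the start of Penk. It was not among the genes in the table, and whether the counting used strand is not given in the sources used here, so reads from this shared stretch cannot be told apart.

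The level of Penk was 37.76, 38.15 and 34.02 TPM in DMSO libraries 1 to 3, where TPM is abundance per transcript length as a share of a fixed total. With TVA it was 65.64, 66.12 and 62.99 TPM. All TVA libraries lay above all DMSO libraries, a separation that 27.3% of the 10866 tested genes also showed in that direction. The group means were 36.6 ± 2.28 TPM (SD, n = 3) and 64.9 ± 1.69 TPM (SD, n = 3), and their ratio was 1.77. The ratio of a single TVA library to a single DMSO library ran from 1.65 to 1.94. The gap between the lowest TVA and the highest DMSO library was 24.8 TPM, against ranges of 4.13 TPM within DMSO and 3.13 TPM within TVA. On the log2(TPM + 1) scale, which understates changes of low genes, Penk was higher by 0.81 (SE 0.052). The median change of all tested genes was 0.04, and relative to it Penk was higher by 0.77. Because Penk was chosen by this change, the values are a description and carry no test. In bulk RNA more transcript per cell and more cells with the transcript cannot be told apart.

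**Figure D1:**
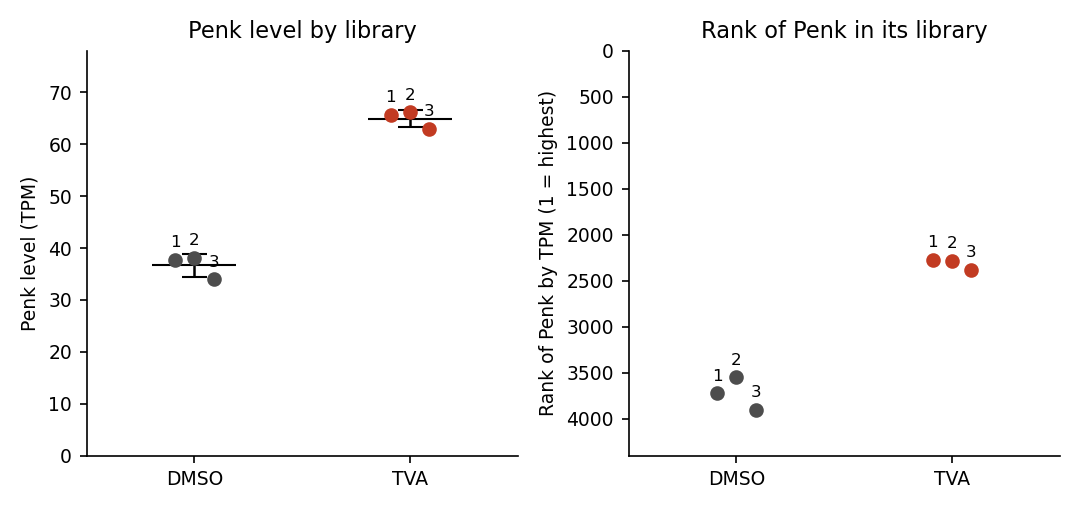
Left, Penk level in TPM in each of the 6 libraries, numbered by replicate, with the mean and SD of each group (n = 3) as black bars. Right, the rank of Penk by TPM among the 24589 genes of the same library, where 1 is the highest. The TVA libraries lie between 62.99 and 66.12 TPM and the DMSO libraries between 34.02 and 38.15 TPM.

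Penk was among the more abundant transcripts of these cells in both groups. In DMSO libraries 1 to 3 it ranked 3724, 3548 and 3900 among 24589 genes by TPM, and with TVA it ranked 2271, 2284 and 2381. Among genes listed above 0 TPM, 74.2% to 76.3% lay below Penk in a DMSO library and 84.2% to 85.0% in a TVA library. The median of genes at 1 TPM or more was 20.94 to 21.98 TPM in the 6 libraries, below Penk in each. By group mean it moved from rank 3720 to rank 2319. Its nearest neighbours by mean in DMSO were Hadh, which encodes an enzyme of fatty acid oxidation, and Ndnl2 above it, and Trabd and Xlr4b below it. With TVA they were Sec62 and Dnaja3 above it and Tbrg4 and Bcl10 below it. All 8 neighbours overlapped with Penk in the group concerned, so its exact place lies within the spread between libraries.

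By log2 change Penk ranked 12th from the top of 10866 tested genes, and 7th of the 8935 whose mean reached 5 TPM. By the size of the change in either direction it ranked 77th, and by the difference in TPM, which was 28.3 TPM, it ranked 174th. Over all tested genes limma called 925 at an adjusted p below 0.05 (8.51%), 574 of them upwards and 351 downwards. The upward share of 62.1% was 38.7% with median-of-ratios scaling and 46.1% with quantile normalization. Leaving out DMSO replicate 2 gave 2242 calls, DMSO replicate 3 gave 294, and TVA replicates 1, 2 and 3 gave 125, 102 and 113. Genes called upwards whose mean reached 5 TPM and that had no overlap between groups were put in order of change. Penk, which carries no test, was placed in this order by its change alone. The 4 genes before it were Plin2, a lipid droplet coat protein, at 1.87, Cpt1a, the carnitine palmitoyltransferase of mitochondrial fatty acid import, at 1.54, the chemokine Cxcl3 at 1.21 and Spp1, which encodes osteopontin, at 1.19. The 2 after it were Rsc1a1 at 0.75 and Hilpda, a lipid droplet protein, at 0.68. The step from Spp1 to Penk was thus wider than the step from Penk to Rsc1a1.

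**Figure D2:**
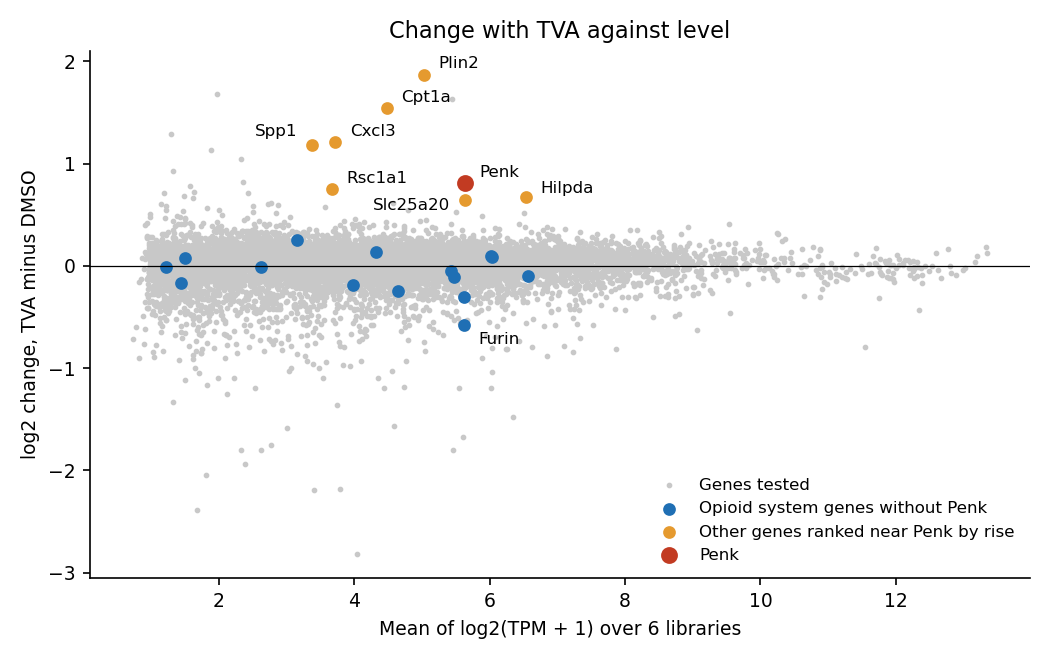
Log2 change between TVA and DMSO (vertical) against the mean log2(TPM + 1) over 6 libraries (horizontal) for the 10866 tested genes. Penk, in red at 0.81, stands above the other genes of the opioid system, in blue, which run from -0.58 to 0.25. Genes next to Penk in the order of change are in orange.

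Of 3720 tested genes at least as high as Penk in DMSO, Snord15b alone had a larger upward log2 change than Penk, while 17 had a downward change at least as large. This small nucleolar RNA was listed at 114, 130 and 0 TPM in DMSO and at 36, 95.3 and 125 TPM with TVA, so its groups overlapped (1.63, adjusted p = 0.53 in limma). The next genes in that order were Hilpda at 0.68, Slc25a20, the mitochondrial carnitine carrier, at 0.65, Perp at 0.52 and Acadvl, an enzyme of fatty acid oxidation, at 0.52. Among 1805 genes within 0.5 of the mean log2 level of Penk the median change was 0.04, and again Snord15b alone had a larger upward change. The transcripts of Penk have a median GC content of 55.2%, against 50.4% for the median tested gene. Among 2352 genes within 2 percentage points of its GC content the median change was -0.0047, and Cpt1a alone had a larger upward change.

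The profile of Penk over the 6 libraries was compared with those of the other 10865 tested genes, by the root mean square difference of log2(TPM + 1) after centring each gene on its own mean. The closest was Hilpda, at 0.078, with 74.3, 74.0 and 69.7 TPM in DMSO and 114, 118 and 118 TPM with TVA. As for Penk, its lowest DMSO library was replicate 3. The next were Rsc1a1 at 0.098, Slc25a20 at 0.1003, Eml1 at 0.103, Wls, which encodes a carrier of Wnt proteins, at 0.126 and Gm14085 at 0.126. The tenth, the chemokine Ccl2, was at 0.152, after Ptprk, Acsl3 and Osr2. The median gene was at 0.393, close to the spread of Penk around its own mean, 0.409. Slc25a20 also matched Penk in level, with 38.2, 39.2 and 38.9 TPM in DMSO and 60.6, 61.9 and 61.3 TPM with TVA. These profiles share the same 6 libraries and are led by the same contrast, so the likeness is a description.

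**Figure D3:**
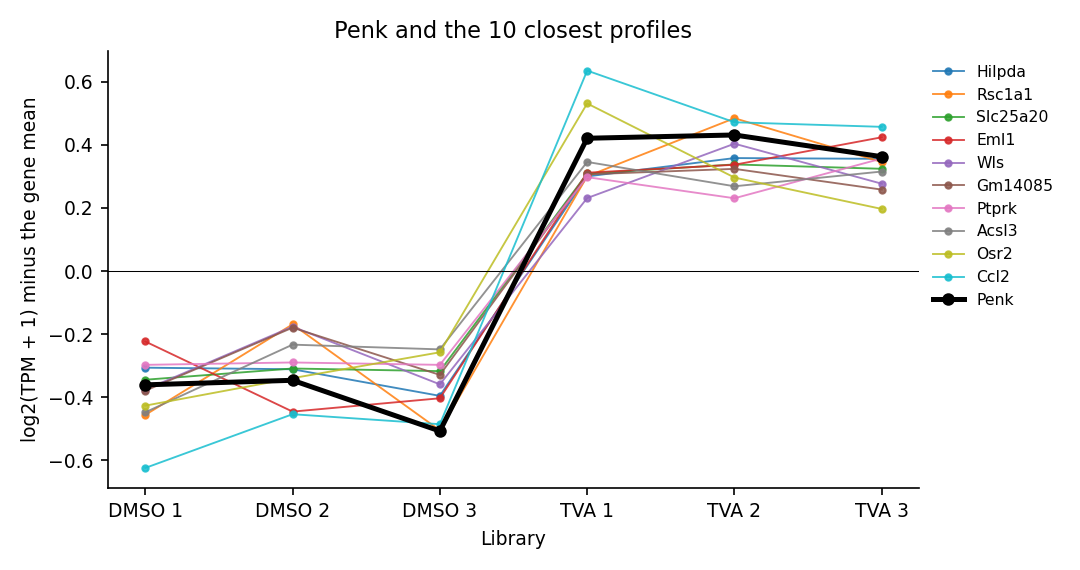
Level of Penk (black) and of the 10 genes with the closest profile in each library, as log2(TPM + 1) minus the mean of the gene over 6 libraries. Lines only join the points of a gene. All 11 genes lie below their mean in the 3 DMSO libraries and above it in the 3 TVA libraries.

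The rest of the opioid system was described by role. A list of 36 such genes covered precursors, receptors, processing and degradation, and 15 of them passed the filter of at least 1 TPM in at least 3 libraries. Of these, 1 rose and 2 fell by limma, which is 20.0% of the 15 against 8.51% of all tested genes, and their median change was -0.05 against 0.04 for all. The count was 1 without DMSO replicate 3 or without any single TVA library. Among precursors, Pomc, the source of beta-endorphin, was at 2.37, 1.83 and 1.51 TPM in DMSO and at 1.41, 1.75 and 1.53 TPM with TVA, which overlapped (-0.17, SE 0.12, adjusted p = 0.34 in limma). Pdyn, the dynorphin precursor, was listed at 0 in 5 libraries and at 0.01 TPM in TVA replicate 2. Pnoc, the nociceptin precursor, did not exceed 0.06 TPM. Penk was thus the most abundant opioid precursor in every library.

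The receptors for enkephalins were at or near 0. Oprd1, the delta receptor, ran from 0 to 0.08 TPM, and Oprm1, the mu receptor, was listed at 0 in all libraries except DMSO replicate 2, at 0.04 TPM. Oprk1, the kappa receptor, and Ackr3, an atypical chemokine receptor that also binds opioid peptides, were listed at 0 in all 6. Oprl1, the nociceptin receptor, ran from 0.01 to 0.13 TPM. Ogfr, the nuclear opioid growth factor receptor whose ligand is Met-enkephalin, was the exception. Its levels were 105, 94.6 and 93.2 TPM in DMSO and 90.0, 89.7 and 93.4 TPM with TVA, which overlapped (-0.10, SE 0.053, adjusted p = 0.23 in limma).

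Of 17 processing genes 7 were tested, and 1 rose and 1 fell, against 8.51% of all tested genes called. With median-of-ratios or quantile scaling or the GC correction 0 rose and 2 fell. Furin, the convertase of the constitutive secretory route, fell. It was at 65.1, 56.7 and 55.3 TPM in DMSO and at 38.1, 41.0 and 38.4 TPM with TVA (-0.58, SE 0.066, adjusted p = 0.0052 in limma), and it passed in all 14 alternative settings, with adjusted p from 0.0017 to 0.040. All TVA libraries of Furin lay below all of its DMSO libraries, the opposite order to that of Penk. Ctsl, which encodes cathepsin L, a protease that can cut proenkephalin, rose from 7.02, 7.75 and 6.66 TPM to 8.49, 8.64 and 8.96 TPM (0.25, SE 0.063, adjusted p = 0.049 in limma). Ctsl missed the threshold when DMSO replicate 1, DMSO replicate 3 or a TVA library was left out (adjusted p 0.015 to 0.18 over the 6 leave-one-out fits), and with both other scalings, the GC correction, the replicate block and all genes above 0 TPM. It passed in 3 of 13 alternatives. Pcsk1, the main convertase for proenkephalin in endocrine cells, was at 1.18 to 1.67 TPM in the 6 libraries (-0.01, adjusted p = 0.94), a level far below Furin per length.

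Most processing genes of the neuroendocrine secretory granule were at or near 0. Pcsk2, the other endocrine convertase, was at 0.01 TPM in DMSO replicate 1 and listed at 0 elsewhere. Cpe, the carboxypeptidase of secretory granules, ran from 0 to 0.17 TPM. Its relative Cpd, of the trans-Golgi network, was at 16.5, 15.7 and 15.6 TPM in DMSO and at 13.0, 14.0 and 14.5 TPM with TVA (-0.19, adjusted p = 0.067), and it passed with median-of-ratios or quantile scaling or the GC correction (lowest adjusted p = 0.022). Pcsk7, another constitutive convertase, was at 16.4 to 19.1 TPM in DMSO and 19.4 to 20.8 TPM with TVA (0.14, adjusted p = 0.18). Rnpep, aminopeptidase B, was at 40.7 to 50.4 and 41.4 to 42.2 TPM (-0.11, adjusted p = 0.32). Pam, which amidates peptides, was at 1.47 to 2.03 TPM (0.07, adjusted p = 0.60). Of the granule genes, Pcsk1n, Scg3 and the convertase Pcsk5 were listed at 0 in all libraries. Chga, Chgb, Scg2 and Scg5 stayed below 1 TPM in each, and Pcsk6 did not exceed 0.01 TPM.

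Of 10 genes for enkephalin degradation 6 were tested, and 1 fell, against the same 8.51%. Mme, which encodes neprilysin, was listed at 0 in all libraries, and Anpep, aminopeptidase N, ran from 0.29 to 0.44 TPM. Mmel1 did not exceed 0.05 TPM, and Ace was listed at 0 except in DMSO replicate 2, at 0.03 TPM. Ece1, endothelin-converting enzyme, was at 28.1, 25.4 and 25.3 TPM in DMSO and 21.6, 22.3 and 22.04 TPM with TVA (-0.25, SE 0.052, adjusted p = 0.033 in limma). Ece1 missed the threshold when DMSO replicate 3 or a TVA library was left out (adjusted p 0.019 to 0.14 over the 6 leave-one-out fits), and it passed in 7 of 14 alternatives. The cytosolic peptidases were abundant, with Dpp3 at 57.9 to 66.6 TPM (0.10, adjusted p = 0.20) and Npepps at 40.3 to 42.9 TPM (-0.05, adjusted p = 0.36). Thop1 was at 62.1, 46.4 and 53.8 TPM in DMSO and 43.2, 43.4 and 43.0 TPM with TVA (-0.31, adjusted p = 0.074). It passed without DMSO replicate 2 (adjusted p = 0.0055) and with the GC correction (adjusted p = 0.047). Under the GC correction 1 gene of this list rose and 2 fell, since Dpp3 (adjusted p = 0.040) and Npepps (adjusted p = 0.045) also passed and Ece1 did not. Lnpep (0.09, adjusted p = 0.21) and Ece2 (-0.01, adjusted p = 0.91) did not pass.

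**Figure D4:**
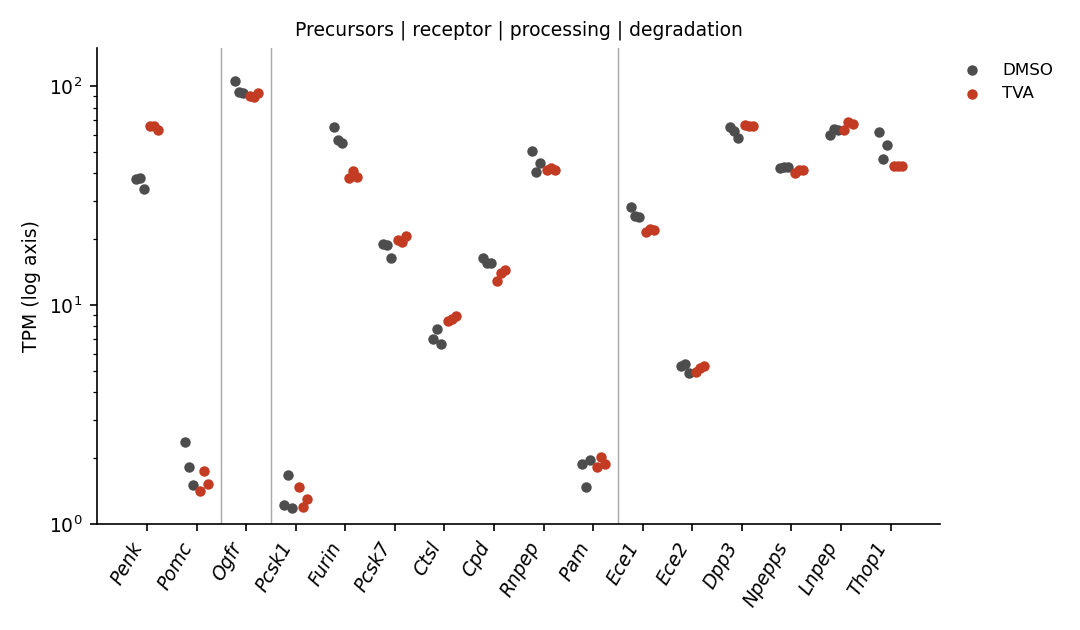
TPM on a log axis for Penk and the 15 other opioid system genes that were tested, 3 DMSO libraries (grey) and 3 TVA libraries (red) each, ordered by role. Penk is at 34.02 to 38.15 TPM with DMSO and 62.99 to 66.12 TPM with TVA, and Furin shows the opposite order.

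Since the Penk promoter is known for its CREB and AP-1 elements, 39 genes of these factors, their cofactors and kinases, and well-known CREB targets were examined beside it. Of 34 tested, 3 rose and 3 fell (17.6%, against 8.51% of all tested genes), with a median change of -0.003. Areg, among the 3 that rose, passed the filter only through TVA. The count was 3 without DMSO replicate 3, 0 without TVA replicate 2 and 1 without either of the other TVA libraries. That 1 gene was Areg. Creb1 itself was at 21.6, 21.8 and 22.2 TPM in DMSO and 22.2, 23.3 and 23.03 TPM with TVA (0.06, adjusted p = 0.35 in limma). Crem, whose products activate or repress the same elements, was at 16.2, 16.4 and 16.1 TPM against 15.96, 16.9 and 16.2 TPM (0.01, adjusted p = 0.90). Fos was at 10.6, 9.93 and 9.24 TPM against 9.33, 9.72 and 10.7 TPM (-0.0026, adjusted p = 0.98). The sign of each of these 3 small changes turned under the GC correction, and that of Crem also under both other scalings. RNA levels do not measure the phosphorylation through which CREB is known to be switched on.

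Among the factors and kinases, Prkacb, a catalytic subunit of protein kinase A, rose from 41.9, 42.6 and 41.4 TPM to 46.6, 46.3 and 46.6 TPM (0.14, SE 0.035, adjusted p = 0.048 in limma). Atf3 fell from 97.1, 93.0 and 91.6 TPM to 78.6, 78.01 and 78.4 TPM (-0.26, SE 0.037, adjusted p = 0.012). Batf, an AP-1 partner of activated T cells, fell from 73.1, 70.4 and 64.3 TPM to 55.4, 59.9 and 54.4 TPM (-0.29, SE 0.060, adjusted p = 0.033). Each of the 3 calls was lost without any single TVA library, and that of Prkacb also without DMSO replicate 3. Over the 6 leave-one-out fits their adjusted p ran from 0.036 to 0.18, from 0.0067 to 0.081 and from 0.028 to 0.14. Of 14 alternatives Prkacb passed in 5, Atf3 in 11 and Batf in 9, and Prkacb was not called under either other scaling.

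Of the CREB targets, Areg, an epidermal growth factor family ligand, was at 0.92, 0.65 and 0.90 TPM in DMSO and 2.87, 2.58 and 1.97 TPM with TVA (0.92). It stood 2 places above Penk in the order of change, at a far lower level, and since it passed the filter only through TVA no test is given for it. Nr4a3, an orphan nuclear receptor, rose from 133, 124 and 128 TPM to 139, 147 and 149 TPM (0.17, SE 0.043, adjusted p = 0.048). Dusp1, a phosphatase of MAP kinases, fell from 16.4, 12.7 and 14.3 TPM to 10.8, 11.3 and 9.79 TPM (-0.41, SE 0.092, adjusted p = 0.041). Both missed the threshold when DMSO replicate 3 or a TVA library was left out (adjusted p 0.031 to 0.19 and 0.0078 to 0.15). Of 14 alternatives Nr4a3 passed in 5, with neither other scaling among them, and Dusp1 in 8. Sst, another neuropeptide gene known for its CREB element, and Th were listed at 0 in all libraries.

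The AP-1 genes Junb and Jund, named here after their values were seen, differed most within DMSO. Junb was at 426, 199 and 346 TPM in DMSO and 186, 170 and 170 TPM with TVA (-0.81, adjusted p = 0.071 in limma). Jund was at 238, 61.7 and 165 TPM against 49.4, 48.0 and 45.4 TPM (-1.48, adjusted p = 0.064). In both, DMSO replicate 2 lay nearest to TVA, and without it they passed (adjusted p = 0.00023 and 0.00013). DMSO replicate 2 also stood apart over all genes, at 1.23 on the first principal component (59.1% of the variance) against -18.2 and -12.8 for the other DMSO libraries and 8.80 to 10.8 for TVA. Penk did not follow that split, since DMSO replicate 2 (38.15 TPM) lay beside replicate 1 (37.76 TPM). Without DMSO replicate 2 its change was 0.84.

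Penk was also compared with other peptide genes. Of 36 further neuropeptide and peptide hormone precursors, 18 were listed at 0 in all libraries, 11 more stayed below 1 TPM, and 7 were tested. The highest value of any of them in any library was 6.47 TPM, for Adm, the adrenomedullin precursor. With the other opioid precursors included, Penk ranked 1st of 40 in both groups, and it did not overlap with the next. In DMSO the next were Adm, Nmb and Pomc, and with TVA they were Adm, Calcb and Nmb. Of the 7 tested 3 were called, against 8.51% of all tested genes, but Edn1 and Nppc among the 3 entered the test only through DMSO. The count was 1, for Edn1, without DMSO replicate 3 or without any single TVA library. The 3 are named after their values were seen, and all were low. Calcb, a calcitonin gene-related peptide precursor, rose from 1.19, 1.49 and 1.2 TPM to 2.72, 2.12 and 2.17 TPM (0.54, adjusted p = 0.022 in limma). Edn1, endothelin 1, was at 1.30, 1.43 and 1.53 TPM in DMSO and 0.27, 0.25 and 0.36 TPM with TVA (-0.90). Nppc, C-type natriuretic peptide, was at 1.82, 1.29 and 2.22 TPM in DMSO and 0.23, 0.87 and 0.80 TPM with TVA (-0.78). Edn1 and Nppc passed the filter only through DMSO, so no test is given for them. Calcb missed the threshold when DMSO replicate 3 or a TVA library was left out (adjusted p 0.0090 to 0.084), and it passed in 8 of 13 alternatives.

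Among the secreted products of activated T cells Penk held a middle place by level per length. In a list of 31 cytokine, chemokine and cytotoxic effector genes that includes Penk, it ranked 18th by mean TPM with DMSO and 15th with TVA. In both groups the genes above it were Xcl1, Ccl4, Ccl3, Gzmb, Ifng, Il2, Ccl1, Lta, Ccl9, Tnf, Csf2, Ccl5, Tgfb1 and Prf1. With DMSO it lay next below Il17a (42.7 ± 2.75 TPM, SD, n = 3), with no overlap, and next above Il13 (32.8 ± 2.18 TPM), with overlap. Cxcl10 and Fasl followed. With TVA it lay between the perforin gene Prf1 (66.4 ± 2.05 TPM) and Il3 (61.0 ± 4.60 TPM), and it overlapped with both. Il17a, at 41.0 TPM, and Il22, at 27.9 TPM, had been above Penk with DMSO and were below it with TVA, as was Il3. Of the 30 genes other than Penk 28 were tested, and by limma 4 rose and 8 fell with TVA, where 8.51% of all tested genes were called. Areg, among the 4, passed the filter only through TVA. The counts were 3 and 4 without TVA replicate 2 or without TVA replicate 3, and 8 and 9 without DMSO replicate 2.

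**Figure D5:**
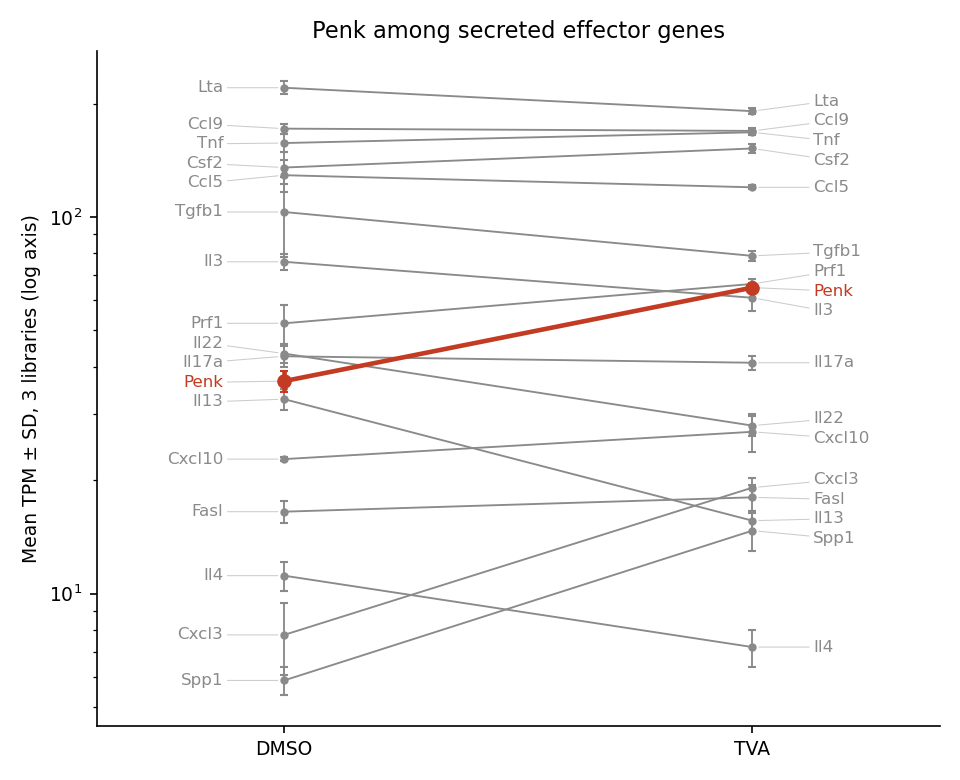
Mean TPM ± SD (3 libraries per group, log axis) with DMSO and TVA for Penk (red) and secreted effector genes (grey). Drawn are 17 of the 31 genes, without those above 200 TPM in both groups or below 10 TPM in both. Penk moves from below Il17a to the level of Prf1 and Il3.

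No protein-coding gene beside Penk on chromosome 4 was called. Of the 5 on each side in RefSeq, Mos, Sdr16c5 and Sdr16c6 on one side and Gm11780 and Cyp7a1 on the other were listed at 0 in all libraries. The nearest, Sdr16c6 and Gm11780, lie 56.0 kb and 389 kb away. Plag1 (0.60 to 0.94 TPM) and Fam110b (0.38 to 0.63 TPM) were not tested. Limma called 0 of the 3 tested genes, and 2 of them had an unadjusted p below 0.05. Chchd7 was at 6.48, 4.43 and 5.72 TPM in DMSO and 4.04, 4.13 and 4.22 TPM with TVA (-0.34, adjusted p = 0.090), and it passed without DMSO replicate 2 (adjusted p = 0.0068). Ubxn2b was at 6.71 to 7.23 TPM against 7.60 to 7.98 TPM (0.15, adjusted p = 0.11). Bpnt2, listed under its older name Impad1, was at 30.3 to 33.0 TPM in all libraries (0.01, adjusted p = 0.85).

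The labelled cell type was checked by its markers. Cd8a was at 274 to 318 TPM and Cd8b1 at 306 to 329 TPM, and the 7 CD8 T cell markers in the table summed to 2089 to 2257 TPM in DMSO and 2336 to 2366 TPM with TVA. Of these 7 markers 1 rose, and 0 did without TVA replicate 2 or 3, 2 without DMSO replicate 1 and 3 without DMSO replicate 2, against 8.51% of all tested genes called. Regulatory T cells are another lymphocyte known to transcribe Penk, so the CD4 and regulatory list is given beside Penk. Its 6 genes summed to 29.2 to 30.4 TPM in DMSO and 24.7 to 26.03 TPM with TVA, with Cd4 at 3.8 to 4.46 and 3.33 to 3.64 TPM. Foxp3 overlapped between groups, at 0.54, 0.81 and 0.53 TPM in DMSO and 0.89, 0.62 and 0.76 TPM with TVA. So did Ikzf2, at 2.82 to 3.17 and 3.03 to 3.31 TPM. Nrp1 of the same list did not, at 10.9 to 11.2 TPM in DMSO and 8.65 to 9.59 TPM with TVA. Of 5 genes tested 2 fell (8.51% of all tested genes were called), Nrp1 and Cd40lg, and 0 without DMSO replicate 3 or without any single TVA library. The 9 myeloid markers summed to 57.1 to 58.6 TPM in DMSO and 74.9 to 79.1 TPM with TVA. Of 8 tested 2 rose by limma, against 8.51% of all tested genes called, and Csf1r, among the 8, passed the filter only through TVA. The count was 4 without DMSO replicate 1, 1 without TVA replicate 1 or 3 and 0 without TVA replicate 2. The 2 were Lyz2 (0.38, adjusted p = 0.0076, and 0.054 without TVA replicate 2) and S100a9 (0.82, adjusted p = 0.021, lost without any single TVA library). The 5 natural killer markers summed to 45.9 to 48.3 TPM in DMSO and 60.7 to 65.1 TPM with TVA. Of 3 tested 2 rose by limma, where 8.51% of all tested genes were called. These were Eomes (0.55, adjusted p = 0.0031) and Tyrobp (0.57, adjusted p = 0.044, lost without DMSO replicate 1 or 3 or TVA replicate 2 or 3). Klrk1 did not pass (0.09, adjusted p = 0.23). Ncr1 and Klrb1c were not tested and overlapped between groups, with lower means with TVA (0.16 and 0.17 TPM) than in DMSO (0.31 and 0.32 TPM). Activated CD8 T cells also express Eomes. The B cell list summed to 11.3 to 15 TPM and 10.8 to 11.1 TPM, and the stromal list did not exceed 0.18 TPM, with Col3a1 and Dcn listed at 0. The part of these markers in the level of Penk was not tested.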

How the data were processed

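Bulk RNA-seq of 6 libraries (3 DMSO, 3 TVA) was analysed. The labels name a SMARTER kit for mRNA-Seq library construction. The authors deposited TPM per gene symbol, and the submitters' processing notes name STAR, RSEM and the build mm10, whose versions and annotation are not given in the sources used here. TPM keep no depth, so the depth of each library is unknown, no counting interval is given, and a 0 means only listed at 0. Groups and replicate numbers came from the sample titles, and columns were assigned by the descriptions. Values were compared as log2(TPM + 1) for genes with at least 1 TPM in at least 3 libraries (10866 of 24589), with limma 3.58.1 in R 4.3.3 (trend, two-sided, Benjamini-Hochberg over all tested genes, threshold 0.05). The fit was tested on simulated data. Penk has no test, since it was chosen by this contrast.

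Penk, the gene lists and the tests were chosen with earlier results of these data known. The lists are opioid precursors, receptors, processing and degradation, CREB and AP-1 factors and targets, neuropeptide precursors, secreted effectors and cell type markers. Named are Penk, the opioid genes tested or listed at 0, called CREB and AP-1 genes plus Creb1, Crem and Fos, the 10 closest profiles, neighbours of Penk in each order (2 per side), list members above Penk and the 3 below, and 5 genes per side on the chromosome. Others are named as chosen after their values were seen or with the marker lists. Sequences and coordinates are from GENCODE vM21 on GRCm38, and chromosome neighbours from RefSeq GRCm38.p6, to which 99.2% of symbols matched. GC content was available for 99.4% of tested genes. Alternatives were another pseudocount (0.1), other filters, median-of-ratios and quantile scaling, no variance trend, a replicate block, a GC correction and leaving out each library.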

Additional observations from a re-analysis of the deposited data

How the results depend on the processing

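The change of Penk kept its direction in all 14 alternative settings, from 0.76 (without DMSO replicate 3) to 0.84 (GC correction). Its rank by change was 25 with a pseudocount of 0.1 and 6 among the 7563 genes whose mean reached 10 TPM, where fewer genes were tested, and 12 to 16 when 1 library was left out. Genes called numbered 494 when all 16749 genes above 0 TPM were tested, 608 of those whose mean reached 10 TPM, and 102 to 2242 when 1 library was left out (highest without DMSO replicate 2, lowest without TVA replicate 2). Of the calls 62.1% were higher, against 38.7% with median-of-ratios and 46.1% with quantile scaling. The opioid count of 3 became 1 with all genes above 0 TPM, 5 with the GC correction and 1 to 4 when 1 library was left out. The CREB and AP-1 count of 6 became 3 with all genes above 0 TPM and 0 to 9 when 1 library was left out, and the count beside Penk ran from 0 to 1. The cause was not tested.

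With the replicate number as a block 218 genes were called, 1 of them an opioid gene and 2 CREB or AP-1 genes, and the change of Penk was 0.81 (SE 0.042). The deviations of same-numbered libraries from their group means correlated at 0.157, 0.035 and -0.077 over the 10866 tested genes. With 3 libraries per group these values cannot tell whether the numbers pair the libraries.

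Small changes turned sign. With the GC correction these were Creb1 (-0.0064), Crem (-0.056), Fos (0.041) and Impad1 (-0.088). Median-of-ratios scaling gave -0.020 for Crem and -0.015 for Impad1, and quantile scaling -0.021, -0.015 and 0.0083 for Crem, Impad1 and Pcsk1. When 1 library was left out, values ran from -0.053 to 0.043 for Fos, -0.042 to 0.012 for Ece2, -0.067 to 0.079 for Pcsk1, -0.0087 to 0.12 for Pam, -0.024 to 0.034 for Impad1 and -0.012 to 0.025 for Crem. Over 38 named genes and 518 values, 400 kept direction and side of the threshold, 89 fell short of it, 10 came past it and 19 turned sign. With unknown depth, low values such as those of Pdyn or Oprd1 have no detection limit.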
